A study of Mus musculus with 8 samples.

Results

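Lipid uptake and storage genes were examined in bulk RNA sequencing of mouse neutrophils linked by their labels to B16 tumors, B16 being a mouse melanoma line. The set holds 9 of the 18187 gene symbols in the deposited table, taken by symbol and not by their values: Cd36, Msr1, Olr1, Slc27a2, Acsl1, Acsl4, Plin2, Cpt1a and Abca1. All 9 were in the table, and all 9 passed the filter on low counts. There were 3 libraries labelled aOX40 (replicates 1 to 3) and 5 labelled IgG (replicates 2 to 6). The label aOX40 is read here as treatment with an antibody to OX40, a receptor that gives activated T cells a second signal, and IgG as the control antibody. The series title concerns activation of neutrophils by T cell immunotherapy. No source used here gives the strain, age or sex of the mice, the dose or timing of treatment, the way cells were isolated, or whether each library is a separate animal. All p-values therefore rest on the spread among these libraries, and that spread may be technical.

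Cells take up lipid through scavenger receptors, which bind modified lipoproteins, and through fatty acid transporters. Acyl-CoA synthetases then trap fatty acids inside the cell by coupling them to coenzyme A. From there a fatty acid can be stored as triglyceride in a lipid droplet, whose surface is coated by perilipins, or be carried into mitochondria for oxidation, and excess cholesterol is exported by ABC transporters. Neutrophils in tumors are known to accumulate lipid, and the fatty acid transporter encoded by Slc27a2 has been linked to their suppressive state.

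The libraries held 69.6 M to 73.5 M counts in aOX40 and 52.7 M to 63.2 M in IgG, so every aOX40 library was deeper than every IgG library, and depth and treatment cannot be told apart. The 11 neutrophil markers summed to between 21232 and 30400.1 CPM in the 8 libraries, where CPM is a count scaled to the library's effective total. Melanoma markers summed to 4.59 to 9.07 CPM in aOX40 and 5.77 to 15.4 CPM in IgG, and T cell markers to at most 3.70 CPM. Of the melanoma markers Mitf had the highest means, at 5.00 ± 1.34 and 4.13 ± 1.18 CPM. Mlana, Dct, Tyrp1, Tyr and Sox10 had lower means in aOX40, and Pmel and Mitf higher ones, all with overlap. The 3 fibroblast and pericyte markers in the table summed to 1.22 to 3.63 CPM in aOX40 and 3.45 to 32.4 CPM in IgG, highest in IgG replicate 2, where Plin2, Acsl1 and Cd36 were highest too. Most of that sum was the collagen gene Col1a1, at 1.72 ± 0.493 and 15.0 ± 11.8 CPM without overlap (log2 fold change -3.12, adjusted p = 0.0689), with Col3a1 and Dcn under 0.1 CPM in at least 6 libraries. Adipocyte markers, 3 of 7 in the table, summed to 13.2 to 24.0 CPM in aOX40 and 6.61 to 22.7 CPM in IgG, with Adipoq at group means of 0.133 and 0.229 CPM. Of these 3, Lipe had the highest means (15.2 ± 5.53 and 8.65 ± 6.07 CPM, with overlap), and it is also listed here for droplet breakdown. An antisense gene model shares 918 exon bases with Lipe, and reads of that stretch may not be told apart. The macrophage and monocyte markers in the table, 11 of 12 listed, summed to 502 to 768 CPM in aOX40 and 337 to 699 CPM in IgG. Most of that sum was Ly6c2, which some neutrophil precursors also express, while C1qa, C1qb and C1qc had group means below 1 CPM. The macrophage receptor genes Adgre1 (aOX40 21.6 ± 6.37 CPM, IgG 6.12 ± 2.62 CPM, SD, n = 3 and n = 5) and Csf1r (51.2 ± 21.2 and 17.5 ± 8.26 CPM) were higher in every aOX40 library than in any IgG library, with adjusted p of 0.0666 and 0.129. Fcgr1 (3.21 ± 1.13 and 4.54 ± 1.82 CPM), Lyz1 (0.925 ± 0.247 and 0.954 ± 0.520 CPM) and C1qc (0.329 ± 0.308 and 0.952 ± 0.686 CPM) of the same list had lower means in aOX40, with overlap. The gene Hmgxb3 lies on the other strand and shares 873 exon bases with Csf1r, so reads of that stretch may not be told apart. Messenger RNAs of the mitochondrial genome, which can follow RNA quality, took 0.0998% to 0.152% of counts in aOX40 and 0.0510% to 0.0811% in IgG. The part of depth, macrophage or fibroblast RNA and RNA quality in the results below was not tested.

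In the comparison of aOX40 with IgG, the lipid droplet coat gene Plin2 and the acyl-CoA synthetase gene Acsl1 each stood below the lowest IgG library in all 3 libraries of the aOX40 group. Plin2 averaged 2685 ± 225 CPM over the 3 aOX40 libraries and 4719 ± 1149.95 CPM over the 5 IgG libraries (mean ± SD), and Acsl1 averaged 67.2 ± 10.1 and 147 ± 63.3 CPM. Acsl4 and Cpt1a, a second synthetase gene and the gene for entry of fatty acids into mitochondria, had higher means in aOX40, with overlap between the groups. None of the 9 genes passed an adjusted p of 0.05 in edgeR's quasi-likelihood test, and 3 of them (Plin2, Acsl1 and Acsl4) had an unadjusted p below 0.05. Of all 13278 genes tested, 2.41% passed the adjusted threshold, 0.821% as higher and 1.59% as lower in aOX40, and 17.8% had an unadjusted p below 0.05. Groups did not overlap for 2 of the 9 genes, both lower in aOX40, against 7.75% of all genes lower without overlap and 8.22% higher. DESeq2 called Plin2 and Acsl1 lower (adjusted p = 0.00481 and 0.0124), and so it did with 7.83% of the genes to which it gave an adjusted p (12.0% in either direction). Another option of edgeR's test (legacy = FALSE) called 5.65% of all genes, 3.00% as lower, and 0 of the 9. The median log2 fold change of the 9 genes was -0.32, that of all genes tested 0.05. In these bulk libraries, fewer cells of a type and less RNA per cell cannot be told apart.

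**Figure D1:**
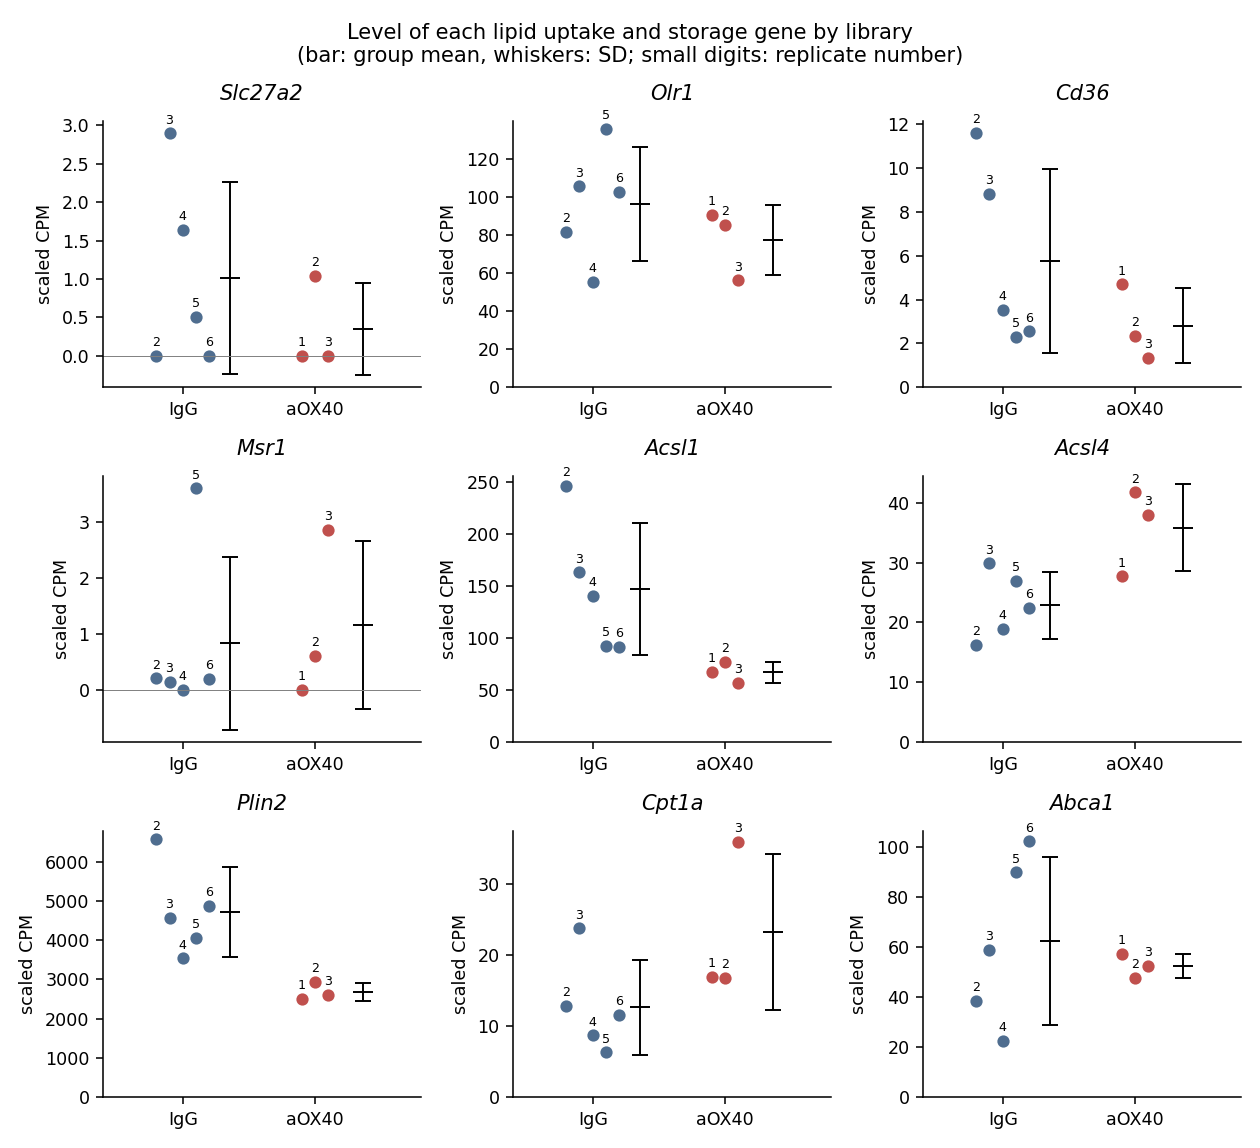
Scaled CPM (vertical axes, linear) of the 9 genes in each library, with IgG libraries in blue and aOX40 libraries in red; digits give the replicate number, and the bars beside the points give the group mean and SD (n = 5 and n = 3). Plin2 and Acsl1 are the genes whose groups do not overlap, and Slc27a2 and Msr1 are at 0 in 4 and 2 of the 8 libraries.

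The 3 scavenger receptors of the set differed widely in level. Olr1 encodes LOX-1, a lectin-like receptor for oxidized lipoprotein (chromosome 6, 129485244 to 129507165, minus strand; GRCm38, the assembly also called mm10, as are all gene positions here). It was at 90.3, 85.3 and 56.2 CPM in aOX40 replicates 1 to 3, and at 81.6, 105, 55.5, 136 and 102 CPM in IgG replicates 2 to 6. The lowest libraries of the 2 groups, aOX40 replicate 3 and IgG replicate 4, had nearly the same level, and the groups overlapped. The log2 fold change was -0.32 (SE 0.29, adjusted p = 0.664), with an unadjusted 95% interval of -0.98 to 0.35. With libraries scaled by total counts alone it was -0.02.

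Cd36, a receptor for long-chain fatty acids and oxidized lipoprotein, lies on chromosome 5 (17781690 to 17888801, minus strand). It was at 4.70, 2.36 and 1.36 CPM in aOX40 replicates 1 to 3. The IgG libraries had 11.6, 8.82, 3.54, 2.32 and 2.55 CPM in replicates 2 to 6. The higher IgG mean (5.76 ± 4.20 against 2.80 ± 1.71 CPM) came from replicates 2 and 3, while the other IgG libraries lay within the aOX40 range, and the gene did not pass (log2 fold change -1.04, SE 0.71, adjusted p = 0.518). Without IgG replicate 2 the log2 fold change was -0.62, and without aOX40 replicate 1 it was -1.62. Platelets and endothelial cells also express Cd36. The 6 platelet markers in the table summed to 0.539 to 2.28 CPM in aOX40 and 3.59 to 6.22 CPM in IgG, without overlap, with Gp1ba, Gp9 and Gp6 under 0.1 CPM in at least 6 libraries. The 2 endothelial markers in the table, of 7 listed, summed to 3.87 to 9.57 CPM in aOX40 and 7.05 to 27.5 CPM in IgG, and were highest in IgG replicate 2, where Cd36 was highest too. All of the sum in IgG replicate 2 was Pecam1, with Vwf at 0. Pecam1 averaged 4.61 ± 1.29 CPM under aOX40 and 13.8 ± 9.22 CPM under IgG. Vwf went the other way, at 2.12 ± 2.28 and 0.815 ± 1.08 CPM, and both overlapped between the groups. The part of platelet and endothelial RNA in the Cd36 levels was not tested.

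Msr1 encodes the class A scavenger receptor, a gene typical of macrophages (chromosome 8, 39581685 to 39642673, minus strand). It was at 0, 0.606 and 2.86 CPM in aOX40 replicates 1 to 3 and at 0.205, 0.135, 0, 3.60 and 0.195 CPM in IgG replicates 2 to 6. Just 1 library of each group, aOX40 replicate 3 and IgG replicate 5, held more than 1 CPM. These libraries set the difference between the groups. The log2 fold change was 0.48 (SE 1.95, adjusted p = 0.946), it turned to -1.43 without aOX40 replicate 3, and it was 3.09 without IgG replicate 5. The macrophage and monocyte markers summed to 502 CPM in aOX40 replicate 3 and 699 CPM in IgG replicate 5, and the highest sum, 768 CPM, was in aOX40 replicate 2. Ly6c2 made up 397 and 656 CPM of the sums in aOX40 replicate 3 and IgG replicate 5. Csf1r was highest of all libraries in aOX40 replicate 3 (75.6 CPM), and at 24.2 CPM in IgG replicate 5, below 25.1 CPM in IgG replicate 4. Adgre1 was at 23.6 CPM in aOX40 replicate 3, below 26.8 CPM in aOX40 replicate 2. Among the IgG libraries Adgre1 was highest in replicate 5 (8.55 CPM). The part of macrophage RNA in the Msr1 levels was not tested.

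Of 13 further genes listed for lipid uptake, 8 were tested. In edgeR 0 passed, 1 had an unadjusted p below 0.05, and DESeq2 called the same 1, Cd68. Cd68, a lysosomal glycoprotein that binds oxidized lipoprotein, averaged 639 ± 208 CPM under aOX40 against 1272 ± 168 CPM under IgG, with every aOX40 library below every IgG library (log2 fold change -0.99, SE 0.23, adjusted p = 0.0617). Scarb2, a lysosomal membrane protein of the CD36 family, overlapped between the groups (0.38, SE 0.30, adjusted p = 0.591). The median over the 8 genes was 0.44.

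Slc27a2 encodes FATP2, a transporter and activator of fatty acids (chromosome 2, 126552407 to 126588243, plus strand). It was scarcely detected. Its counts were 0, 93 and 0 in aOX40 replicates 1 to 3 and 0, 150, 88, 31 and 0 in IgG replicates 2 to 6, which is at most 2.89 CPM. A count of 3, taken as the limit of detection, corresponds to 0.0337 to 0.0616 CPM in these libraries. The libraries at 0 came from both groups, 2 in each. The fitted difference was -1.53 on the log2 scale with an SE of 2.42 (adjusted p = 0.825), and the unadjusted 95% interval ran from -6.98 to 3.93. No difference was detectable at this depth. Without aOX40 replicate 2, the only aOX40 library with counts, the group stands at 0. The long noncoding RNA gene Gm26697 lies on the other strand and shares 419 exon bases with Slc27a2, and reads of that stretch may not be told apart.

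The acyl-CoA synthetases differed in direction among themselves. Acsl1, the long-chain synthetase best known in fat storage and oxidation, lies on chromosome 8 (46471037 to 46536051, plus strand). It was at 67.9, 76.9 and 56.8 CPM in aOX40 replicates 1 to 3, and at 246, 163, 141, 92.9 and 91.9 CPM in IgG replicates 2 to 6. The aOX40 libraries were close to each other, while the IgG libraries spread 2.67-fold from lowest to highest. For Acsl1 the log2 fold change was -1.13 (SE 0.34, adjusted p = 0.121). Under scaling by total counts it was -0.81 and the groups overlapped. None of the deposited Acsl1 counts was a whole number within 0.01. The unnamed gene model Gm45244 lies on the other strand and shares 1039 exon bases with Acsl1, but was itself at most at 0.856 CPM.

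Acsl4 activates arachidonic acid and other polyunsaturated fatty acids and is required for the membrane lipids oxidized in ferroptosis (chromosome X, 142317993 to 142390535, minus strand). Its levels were 27.7, 41.7 and 38.0 CPM in aOX40 replicates 1 to 3 and 16.3, 29.9, 19.0, 26.9 and 22.5 CPM in IgG replicates 2 to 6. The groups overlapped only in that aOX40 replicate 1 lay below IgG replicate 3. The fitted log2 difference for Acsl4 was 0.64 (SE 0.25, adjusted p = 0.219). With libraries scaled by total counts, or without either of those libraries, the groups did not overlap, and the adjusted p was 0.113, 0.178 and 0.172 in these analyses.

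A ratio between genes of the same library does not depend on how libraries are scaled. Per kilobase of longest transcript, Acsl1 exceeded Acsl4 by 14.1, 5.09, 6.90, 3.21 and 3.81 times in IgG replicates 2 to 6, and by 2.28, 1.72 and 1.39 times in aOX40 replicates 1 to 3. Per kilobase of annotated exon, the union of all annotated transcripts, the same ratio was 7.79, 2.82, 3.83, 1.78 and 2.11 in IgG and 1.26, 0.951 and 0.771 in aOX40, so which of the 2 genes was higher in aOX40 depended on the length used. With either length the ratio was lower in each aOX40 library than in any IgG library. This ratio was chosen after the levels were seen and carries no test.

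Acsl5, the synthetase of the family that is prominent in gut and liver, rose. It was at 29.9, 57.5 and 51.8 CPM in aOX40 and at 13.2, 16.2, 10.2, 13.2 and 16.7 CPM in IgG, without overlap (log2 fold change 1.74, SE 0.26, adjusted p = 0.0247). Zdhhc6 lies on the other strand, shares 404 exon bases with Acsl5 and also rose (1.77, SE 0.35, adjusted p = 0.0398), so reads of the shared stretch may not be told apart. Fabp5, a cytosolic fatty acid carrier, fell from 73.7 ± 10.3 CPM in IgG to 31.7 ± 5.41 CPM in aOX40 (-1.22, SE 0.20, adjusted p = 0.0292). Under scaling by total counts Fabp5 no longer passed (adjusted p = 0.0510). Of the 18 further genes listed for transport, activation and binding of fatty acids, 8 were tested, and these were the 1 higher and the 1 lower. The mitochondrial Got2 (0.79, SE 0.38, adjusted p = 0.326) and the acyl-CoA binding Acbd3 (0.56, SE 0.24, adjusted p = 0.255) were among the 6 that did not pass. Near copies that are counted separately match part of the longest transcript of Fabp5 and of Got2 at 95% identity or more. They cover 12.8% (Gm14328) and 12.7% (Gm6166) of Fabp5, and 64.7% (Gm10874) and 51.1% (Got2-ps1) of Got2.

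**Figure D2:**
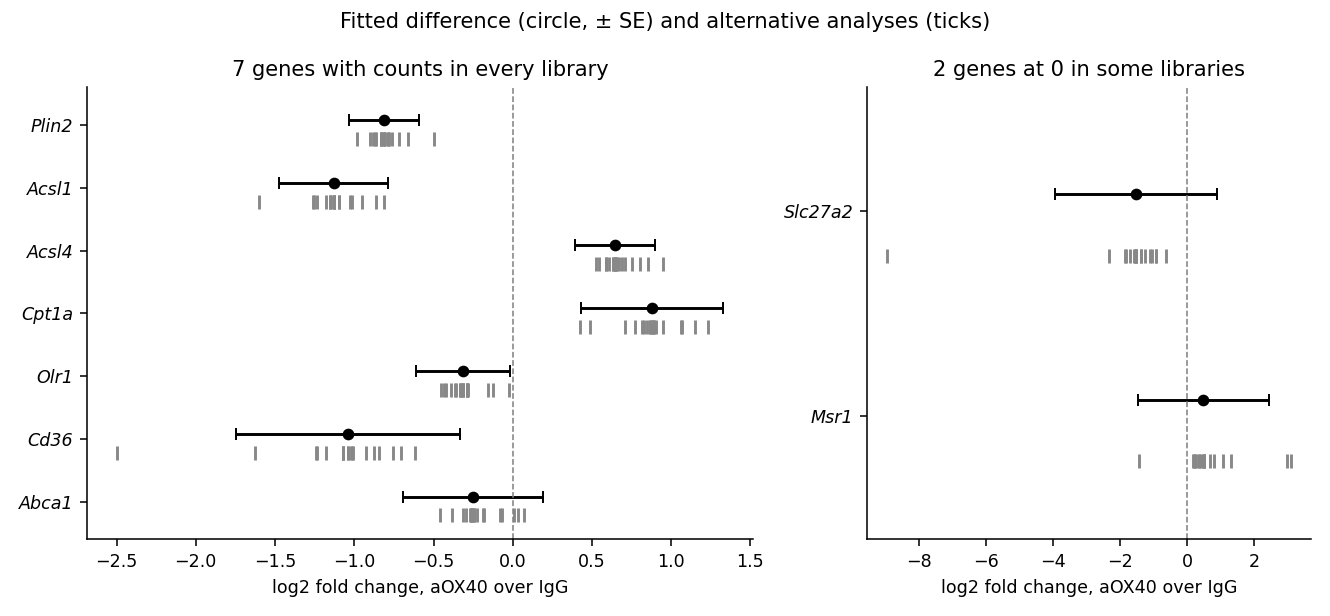
Log2 fold change of aOX40 over IgG (horizontal axes) for each of the 9 genes, as fitted by edgeR (circle, ± SE) and under each alternative analysis in which the gene was tested (ticks, 19 or 18 per gene); the 2 panels have different scales. Plin2, Acsl1, Acsl4, Cpt1a, Olr1 and Cd36 stay on the same side of 0 throughout, whereas Abca1 and Msr1 cross it.

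Plin2 encodes perilipin 2, the main droplet coat protein outside fat tissue (chromosome 4, 86648386 to 86670060, minus strand). It was by far the most abundant gene of the set, ranking 38 of 13278 by mean CPM and taking 0.267% to 0.590% of all counts of a library. The 3 aOX40 libraries had 2505, 2937 and 2614 CPM, and IgG replicates 2 to 6 had 6566, 4558, 3535, 4065 and 4869.6 CPM. The highest aOX40 library lay below the lowest IgG library. On the log2 scale this was a difference of -0.81 (SE 0.22, adjusted p = 0.0916), with an unadjusted 95% interval of -1.31 to -0.32. Limma voom gave an adjusted p of 0.0474, or 0.0280 with quality weights, where 2.93% and 5.14% of all genes were called lower. Scaling by total counts gave -0.50 (adjusted p = 0.245) and the groups then overlapped. The gene model Gm12551, which is counted separately, matches 13.7% of the longest Plin2 transcript at 95% identity or more. Reads of that stretch may not be told apart.

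Sequences just upstream of the start sites of Plin2 and Acsl1 are shown because these are the members whose groups did not overlap. They are the 250 bases before the start in the RefSeq promoter table (GRCm38.p6), which held an entry for 8 of the 9 genes; for Acsl1, which has 2 entries, the upstream one is shown. Capitals mark matches, on either strand, to AGGTCA, a core element bound by many nuclear receptors, or to ACGTG or GCGTG, the core bound by hypoxia-inducible factors. The Plin2 stretch is chr4:86670060-86670309 on the minus strand and the Acsl1 stretch chr8:46470787-46471036 on the plus strand, each written 5′ to 3′ along the gene.
Plin2: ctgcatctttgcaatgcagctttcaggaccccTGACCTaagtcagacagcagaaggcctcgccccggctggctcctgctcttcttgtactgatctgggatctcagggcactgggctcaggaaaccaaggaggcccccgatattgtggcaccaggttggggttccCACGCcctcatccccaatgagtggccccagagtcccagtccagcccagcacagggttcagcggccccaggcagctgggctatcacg
Acsl1: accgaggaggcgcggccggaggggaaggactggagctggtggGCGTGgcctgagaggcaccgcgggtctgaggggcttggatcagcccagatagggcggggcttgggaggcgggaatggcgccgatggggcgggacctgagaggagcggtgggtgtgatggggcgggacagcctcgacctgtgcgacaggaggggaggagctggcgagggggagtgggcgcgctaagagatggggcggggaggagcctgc
The Plin2 stretch held 1 match to AGGTCA, beginning 218 bases before the start, and 1 to the hypoxia core, beginning 86 bases before it. The Acsl1 stretch held 1 match to the hypoxia core, beginning 208 bases before the start, and none to AGGTCA. The second Acsl1 entry, which is not shown, held 0 matches to either. Among the other members with an entry, the hypoxia core was also matched in Slc27a2, Acsl4 and Abca1. AGGTCA was also matched in Slc27a2, Olr1, Cd36 and Cpt1a. Of all 32851 promoter entries of the same length, 14.0% held AGGTCA and 38.6% held the hypoxia core, so such matches are common. A link between these matches and the levels was not tested.

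Genes of lipid droplets and triglyceride synthesis went both ways. Of 24 further genes listed, 16 were tested, 2 rose, 2 fell and 12 did not pass, with a median log2 fold change of -0.43. Hilpda, a small droplet protein that inhibits lipolysis, fell from 4374 ± 1214 CPM in IgG to 1442 ± 557 CPM in aOX40 (-1.60, SE 0.31, adjusted p = 0.0384). Lpin2, a phosphatidate phosphatase, fell from 235 ± 91.5 to 77.6 ± 11.7 CPM (-1.60, SE 0.32, adjusted p = 0.0401). Dgat2, an enzyme of the last step of triglyceride synthesis, rose from 196 ± 32.0 to 384 ± 46.0 CPM (0.97, SE 0.18, adjusted p = 0.0337). Agpat2, an acyltransferase of an earlier step, rose from 17.9 ± 2.32 to 35.3 ± 4.03 CPM (0.98, SE 0.19, adjusted p = 0.0384). Dgat1, which catalyses the same step as Dgat2, averaged 592 ± 278 CPM under aOX40 and 1063 ± 263 CPM under IgG and did not pass (-0.85, SE 0.32, adjusted p = 0.201). Soat1, which esterifies cholesterol for storage, was lower in every aOX40 library than in any IgG library but did not pass either (-0.70, SE 0.19, adjusted p = 0.0960). Under scaling by total counts Hilpda and Lpin2 had adjusted p of 0.0510 and 0.0730, and Dgat2 and Agpat2 still passed.

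The abundant G0s2, which encodes an inhibitor of the lipase ATGL, ranked 27 of 13278 by mean CPM, and Hilpda ranked 47. G0s2 averaged 3413 ± 1189.63 CPM under aOX40 and 6245 ± 1795 CPM under IgG, without overlap and without passing (-0.87, SE 0.30, adjusted p = 0.164). Pnpla2, which encodes that lipase, was at 122 ± 13.4 and 208 ± 52.1 CPM, likewise without overlap (-0.77, SE 0.22, adjusted p = 0.109). Per kilobase of longest transcript, Plin2 exceeded Pnpla2 by 26.4 to 35.1 times in aOX40 and by 22.5 to 40.6 times in IgG, so this ratio did not separate the groups. Plin3, a perilipin that is also found in the cytosol, averaged 75.4 ± 12.9 CPM under aOX40 and 47.8 ± 14.5 CPM under IgG (0.66, SE 0.26, adjusted p = 0.217). By the same length, Plin2 exceeded Plin3 by 63.1 to 74.5 times in aOX40 and by 133 to 280.2 times in IgG, without overlap. Plin2 has 3512 bases of annotated exon against 1888 in its longest transcript, so both ratios would be smaller per kilobase of annotated exon. Whether the groups overlap does not depend on the length. G0s2, Plin3, Dgat1, Soat1 and these ratios were chosen after their values were seen. Of the 9 genes listed for droplet breakdown 7 were tested, and Lipa, the lysosomal acid lipase, was the 1 that passed, averaging 88.9 ± 10.5 CPM under aOX40 and 40.2 ± 10.04 CPM under IgG (1.14, SE 0.23, adjusted p = 0.0385).

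**Figure D3:**
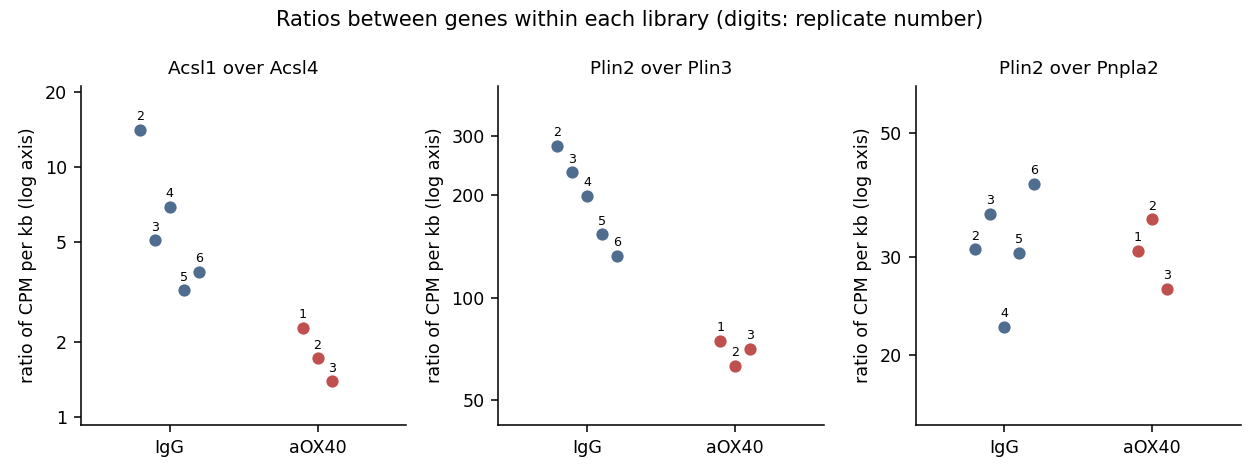
Ratio of scaled CPM per kilobase of longest transcript between pairs of genes within each library (vertical axes, logarithmic), with IgG libraries in blue, aOX40 libraries in red and the replicate number as a digit. Acsl1 over Acsl4 and Plin2 over Plin3 separate the groups, at 1.39 to 2.28 against 3.21 to 14.1 and at 63.1 to 74.5 against 133 to 280.2, and Plin2 over Pnpla2 does not.

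Cpt1a, which encodes the enzyme that commits long-chain fatty acids to mitochondrial entry, lies on chromosome 19 (3322334 to 3385733, plus strand). It was at 17.0, 16.8 and 35.9 CPM in aOX40 replicates 1 to 3 and at 12.9, 23.8, 8.71, 6.33 and 11.5 CPM in IgG replicates 2 to 6. Replicate 3 was the highest library in each group, and IgG replicate 3 lay above 2 of the 3 aOX40 libraries. The fitted log2 difference for Cpt1a was 0.88 (SE 0.45, adjusted p = 0.360). Leaving out aOX40 replicate 3 gave 0.42 and leaving out IgG replicate 3 gave 1.23, where the groups did not overlap.

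Of 19 further genes listed for mitochondrial fatty acid oxidation, 16 were tested. In edgeR 0 passed and 3 had an unadjusted p below 0.05, and DESeq2 called 1, Acadl. A log2 fold change above 0 was found for 13 of the 16, against 52.1% of all genes tested, and the median was 0.64. Acadl, the long-chain acyl-CoA dehydrogenase, averaged 49.9 ± 12.5 CPM under aOX40 and 22.5 ± 5.86 CPM under IgG without overlap (1.15, SE 0.27, adjusted p = 0.0619). The carnitine acetyltransferase gene Crat, at low levels, averaged 12.4 ± 2.75 and 2.66 ± 2.43 CPM (2.22, SE 0.96, adjusted p = 0.268). Under scaling by total counts the median over all genes tested shifted from 0.05 to 0.35.

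Abca1, the exporter that loads cholesterol and phospholipid onto apolipoprotein A-I, lies on chromosome 4 (53030787 to 53159895, minus strand). The aOX40 libraries were close together, at 57.2, 47.7 and 52.4 CPM. The IgG libraries ran from 22.5 CPM in replicate 4 through 38.6 in replicate 2, 58.9 in replicate 3 and 89.7 in replicate 5 to 102 CPM in replicate 6. All aOX40 values thus lay inside the IgG range, which was 4.54-fold wide against 1.20-fold in aOX40. For Abca1 the log2 fold change was -0.25 (SE 0.44, adjusted p = 0.847), with an unadjusted 95% interval of -1.25 to 0.75. It was 0.03 under scaling by total counts and 0.0067 without IgG replicate 6.

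Of 16 further genes of cholesterol efflux and the sterol-sensing LXR receptors, 15 were tested and 1 passed, with a median of 0.01. That gene was Nr1h3, which encodes LXR alpha. It had 202, 174 and 226 counts in the aOX40 libraries and 0 in all 5 IgG libraries. Its mean of 2.50 CPM in aOX40 was at least 40.6-fold higher than 3 counts in an IgG library (adjusted p = 0.0316). Nr1h2, the widely expressed LXR beta gene and named here after its values were seen, had means of 122 ± 30.5 and 121 ± 25.2 CPM (log2 fold change 0.01, SE 0.23, adjusted p = 0.990). Abcg1, a cholesterol exporter that acts with Abca1, averaged 56.0 ± 12.9 CPM under aOX40 and 109 ± 28.7 CPM under IgG without overlap and did not pass (-0.97, SE 0.27, adjusted p = 0.0973). Npc1, a lysosomal cholesterol carrier, averaged 38.6 ± 9.04 and 93.6 ± 41.0 CPM with overlap (-1.28, SE 0.39, adjusted p = 0.120). Rmc1 lies on the other strand and shares 511 exon bases with Npc1, so reads of that stretch may not be told apart.

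**Figure D4:**
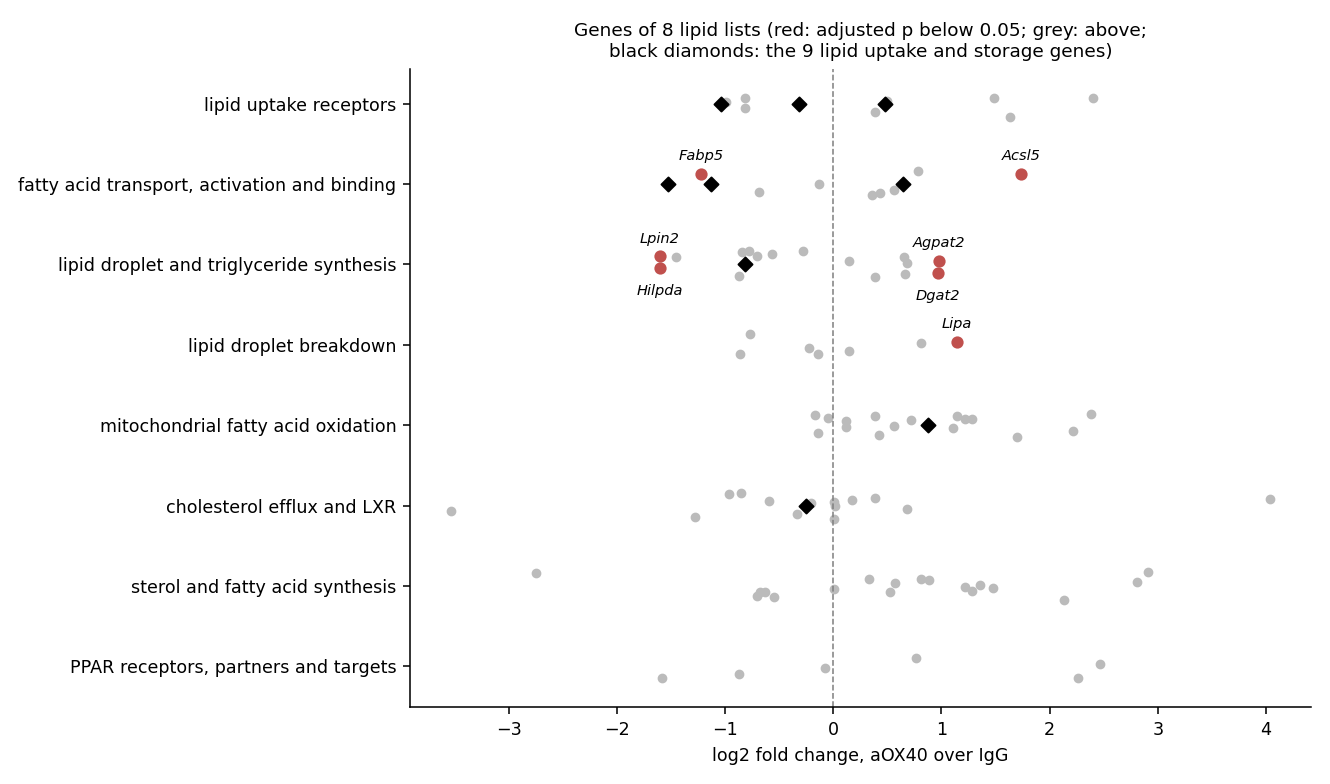
Log2 fold change of aOX40 over IgG (horizontal axis) for the tested genes of 8 lipid lists (rows, jittered vertically); red points passed an adjusted p of 0.05 in edgeR, grey points did not, and black diamonds are the 9 lipid uptake and storage genes, none of which passed. Named red points are the 3 lower and 4 of the 5 higher genes; Nr1h3, at 0 in every IgG library, is left out.

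Over all 8 lists, 94 genes outside the set were tested, and 5 rose and 3 fell, or 8.51% against 2.41% of all genes. The lists were chosen with earlier results of these data known, so this share is a description. The calls rested on all libraries together. Without aOX40 replicate 2 or 3, or without IgG replicate 3 or 5, edgeR called 0 of them, with 25, 28, 34 and 33 at an unadjusted p below 0.05, while DESeq2 with all libraries called 24. In edgeR 5 were called when aOX40 replicate 1 was left out, 5 when either replicate 2 or 4 of IgG was, and 3 when replicate 6 of IgG was. With total counts as the scale, 7 rose and 0 fell.

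The order of the 9 genes by level needs the length of their exons. As mean CPM per kilobase of annotated exon over the 8 libraries, Plin2 stood at 1126 ± 390.2 (SD, n = 8), followed by Olr1 at 24.9 ± 7.39, Acsl1 at 11.2 ± 6.05, Abca1 at 5.66 ± 2.51 and Acsl4 at 5.13 ± 1.63. Lower levels were those of Cpt1a at 2.17 ± 1.24, Cd36 at 1.30 ± 1.01, Slc27a2 at 0.202 ± 0.281 and Msr1 at 0.150 ± 0.226 CPM per kilobase. The range of Plin2 over the libraries lay apart from that of its neighbour, with a lowest value of 713 against a highest of 37.9 for Olr1, while the ranges of each further pair of neighbours overlapped. Within a library, Plin2 stood above Olr1, Acsl4 above Cpt1a and Cd36 above Slc27a2 in 8 of 8, and Abca1 above Acsl4 in 5 of 8. This order held over the 5 IgG libraries taken alone. Over the 3 aOX40 libraries alone, Acsl4 (6.62 ± 1.34) came before Acsl1 (6.41 ± 0.964) and Abca1 (5.06 ± 0.460), and Msr1 (0.182 ± 0.237) before Slc27a2 (0.0927 ± 0.160), with differences within the SD for the first and the last of these pairs.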

How the data were processed

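The table the authors deposited holds estimated counts per gene symbol without scaling. Per the submitters' processing notes, STAR 2.6.0, Subread and featureCounts 1.5.1 were used with build mm10; no source used here gives the annotation, the strand setting or the step that made counts fractional, so reads of genes that overlap on the 2 strands may be mixed. Of all values, 63.4% were whole within 0.01. Columns were matched to libraries by the sample name in the labels. Estimated counts were rounded, filtered with filterByExpr by group and scaled with TMM factors, and all 13278 remaining genes were fitted with edgeR 4.0.16 (estimateDisp, then glmQLFit and its F test with default settings; R 4.3.3), with treatment as the sole factor and Benjamini-Hochberg adjustment at 0.05. The common coefficient of variation between libraries was 84.7%. Standard errors follow from each gene's F value. CPM used the TMM factors, which were 1.07 to 1.27 in aOX40 and 0.874 to 0.984 in IgG, without overlap. Unless another tool is named, adjusted p is from edgeR's quasi-likelihood test. Positions and exon lengths came from GENCODE M21 by symbol.

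Named were the 9 genes of the set, up to 4 genes with the smallest adjusted p of each of 8 lipid lists, and genes most alike in pattern. Members and lists were chosen with earlier results of these data known. Alternatives were other scalings and filters, DESeq2 1.42.0, limma 3.58.1 voom with and without quality weights, robust dispersion, each library left out and the replicate number as a block. The option legacy = FALSE of glmQLFit was added after the data were seen. The procedure was tested on simulated data. Without molecular identifiers, reads are not separate molecules, so the limit of 3 counts covers counting error only.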

Additional observations from a re-analysis of the deposited data

Results flagged for a closer look

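Among the 5 IgG libraries, Msr1 was at 3.60 CPM in replicate 5 and between 0 and 0.205 CPM in the other 4. The T cell markers summed to 2.36 CPM in IgG replicate 4 and to 1.17 to 1.42 CPM in the other IgG libraries. The platelet markers summed to 6.22 CPM in IgG replicate 4 and to 3.59 to 3.86 CPM in the others. In each case the gap to the nearest library was larger than Dixon's 95% critical value of 0.710 of the group's range. The 9 genes of the set, the 8 lipid list genes that passed and 9 sums of cell type markers were examined in this way, 26 in all, and chance sets a library apart in about 1 of 20.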

How the results depend on the processing

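Depth and the spread between libraries limit these results. No gene of the set passed in edgeR under any alternative setting (2 to 4 had an unadjusted p below 0.05), with a count of 0 to 0 when each library was left out; DESeq2 called 2 (Plin2 and Acsl1), limma voom 1 and voom with quality weights 1 (Plin2). Of 94 other lipid list genes, 8 passed, against 4 of 113 with no filter, 13 of 70 with 10 counts required in all libraries, 24 with DESeq2, 14 with limma voom, 20 with quality weights, 15 with legacy = FALSE and 0 to 5 with each library left out. Of all genes 320 passed, against 172 with no filter, 707 with 10 counts in all libraries, 1457 with DESeq2, 724 with limma voom, 1305 with quality weights, 750 with legacy = FALSE and 0 to 187 with each library left out. The share of calls that were higher was 34.1%, and 71.1% with total counts, 46.3% and 47.7% with voom without and with weights, and 46.8% with legacy = FALSE. The groups did not overlap for 2 genes of the set, for 1 with total counts (Acsl4, higher) and for 2 to 4 with each library left out. With total counts the aOX40 means were 3084 CPM for Plin2, 77.3 CPM for Acsl1 and 59.6 CPM for Abca1. Per kilobase of longest transcript, in place of all exons, levels were 2095 CPM for Plin2, 3.85 for Cpt1a and 20.6 for Acsl1, and Msr1 (0.261) came level with Slc27a2 (0.261) at the bottom of the order. The log2 fold change of Abca1 turned to 0.0326 with total counts and 0.0696 with the replicate block, and ran from -0.46 to 0.0067 with each library left out; that of Msr1 ran from -1.43 (without aOX40 replicate 3) to 3.09; the cause was not tested. The groups share only replicate numbers 2 and 3, whose libraries deviated together with a correlation of 0.03 and 0.05. These 2 values cannot decide whether the number pairs libraries, and the labels give only the number itself. With the replicate number as a block edgeR called 0 lipid list genes (26 at an unadjusted p below 0.05) and 0 of all genes (1769). Of the lipid list genes that passed, the call was lost in 5 of 19 alternatives for Acsl5, 6 for Fabp5, 7 for Dgat2, 9 each for Agpat2, Lipa and Lpin2 and 10 for Hilpda, and in 7 of 18 for Nr1h3; none of them changed direction.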

Other observations

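Regulators of lipid synthesis and the lipid-sensing PPAR receptors had 0 calls in edgeR among 18 and 6 tested genes, with 8 and 2 at an unadjusted p below 0.05, while DESeq2 called 4 and 2. Srebf1, a transcription factor of lipid synthesis, averaged 17.3 ± 2.05 CPM under aOX40 and 7.42 ± 1.78 CPM under IgG (SD, n = 3 and n = 5) without overlap (log2 fold change 1.22, SE 0.28, adjusted p = 0.0620). Fdps, an enzyme of the sterol pathway, ranged from 4.65 to 6.44 CPM in aOX40 and from 9.42 to 119 CPM in IgG, highest in IgG replicate 2, where Acsl1, Plin2 and Cd36 were highest too (-2.75, SE 0.91, adjusted p = 0.153). Ppard, a PPAR gene, averaged 12.1 ± 5.53 CPM under aOX40 and 36.3 ± 7.94 CPM under IgG without overlap (-1.58, SE 0.37, adjusted p = 0.0630).

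Among 4558 other genes with a mean of at least 10 CPM, those most alike over the 8 libraries were found by Pearson's r of log2 CPM, as a description. The libraries include both groups, so a shared difference between groups raises r. Plin2 was most like Lpp (r = 0.97) and Spata1 (0.97), Acsl1 most like Kmt2e (0.97) and Fdps (0.96), and Acsl4 most like Mat2a (0.98) and Pisd (0.98). Cpt1a was most like Jak1 (0.96) and Relb (0.95), Abca1 most like Rsbn1 (0.96) and Hmg20b (0.95), and Olr1 most like Gon7 (0.94) and Tnfrsf22 (0.93).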
